A study of Oryctolagus cuniculus with 3 samples.

Results

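Galectins are a family of small lectins, and their genes were followed here through the differentiation of a rabbit corneal epithelium in culture. The set holds the genes named LGALS1, LGALS3, LGALS7, LGALS8 and LGALS9 and the gene of a galectin ligand, LGALS3BP. They were taken by exact gene name, which gave 6 of the 20536 gene names in the deposited tables, and all 6 were found. Fragments (read pairs counted once) were summed over the coding sequences filed under each name.

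The cells were RCE1(5T5), a cell line of rabbit corneal epithelium, sampled on day 4 as non-differentiated cells, on day 6 as committed cells and on day 10 once terminally differentiated, with 1 library each. At every stage the cells had grown on a feeder layer of 3T3 cells, mouse fibroblasts treated with mitomycin C, which was removed with EDTA before RNA was taken, in medium with fetal calf serum, insulin, transferrin, hydrocortisone, triiodothyronine, cholera toxin, adenine and epidermal growth factor. With 1 library per stage no difference has a replicate check and no test was run, and stage, day and library cannot be told apart. Brackets give 95% counting intervals, which cover counting error only. In RNA from a whole culture, fewer cells of a type and less RNA per cell cannot be told apart.

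Galectins bind galactose-containing sugars on glycoproteins and glycolipids through a conserved carbohydrate recognition domain. They are made in the cytosol without a signal peptide and leave the cell by an unconventional route, so they act both inside cells and at the surface. Galectin-1 (LGALS1) and galectin-7 (LGALS7) carry a single recognition domain per chain and pair up. Galectin-3 (LGALS3) joins its domain to a long flexible tail through which several molecules assemble, while galectin-8 (LGALS8) and galectin-9 (LGALS9) carry a pair of different domains on 1 chain. In stratified epithelia such as the cornea, galectin-3 crosslinks membrane mucins at the apical surface, and galectin-7 is a typical product of the stratified layers.

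The libraries held between 10171693 and 12582706 fragments. Levels are compared between libraries as CPM (counts scaled to a common library size) after scaling with TMM (trimmed mean of M values) factors of 0.958 to 1.07. Levels are compared between genes as the deposited TPM, which take coding length into account as well. The words rose and fell are kept for genes whose log2(CPM + 1) differed by 1 or more, that is 2-fold, between a pair of libraries. All 6 genes reached 1 CPM in at least 1 library, as did 12818 genes in all. All 17 epithelial markers looked for were measured. From day 4 to day 10, 8 of them rose, 1 fell and 8 did neither, against 17.1% of all measured genes rising and 15.8% falling. KRT12, KRT13 and KRT15, keratins of stratified epithelia, were among the risers, and SFN fell from 1347 to 409.7 CPM. With the deposited TPM 5 rose and 3 fell.

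Galectin expression shifted from an even mixture of LGALS1 and LGALS3 to LGALS3 alone in front. On day 4 LGALS1 stood at 509 TPM and LGALS3 at 487.1 TPM, which did not differ beyond counting error, with LGALS3 at 0.957 of LGALS1 [0.908 to 1.01]. On day 6 they stood at 951.1 and 1096.8 TPM, a ratio of 1.15 [1.12 to 1.19]. By day 10 LGALS1 was at 161.6 TPM and LGALS3 at 1794.5 TPM, a ratio of 11.1 [10.4 to 11.9]. These ratios are taken within a library and do not depend on how the libraries were scaled.

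The summed TPM of the 5 galectins was 1008.2 on day 4 and reached 2071.5 on day 6 and 2022.1 on day 10. By TPM it was thus nearly level over the last interval while its makeup changed. LGALS3 made up 48.3% of it on day 4, 52.9% on day 6 and 88.7% on day 10, and LGALS1 50.5%, 45.9% and 7.99%. The other 3 galectins together held 1.20%, 1.14% and 3.26%. The summed CPM of the 5 galectins was 575 on day 4, 1594 on day 6 and 1900 on day 10, so by CPM the last interval was not level.

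**Figure D1:**
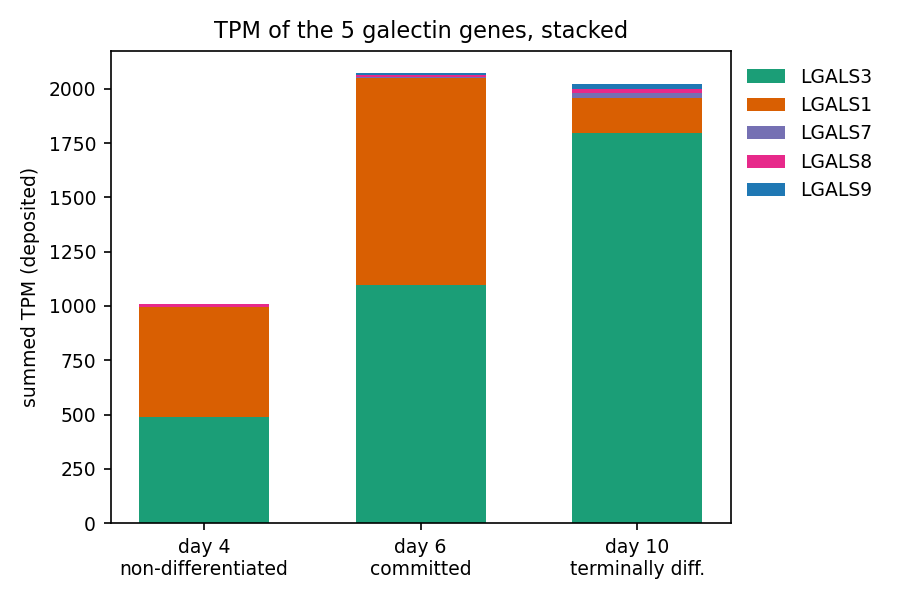
Deposited TPM of the 5 galectin genes, stacked, in the libraries of day 4, day 6 and day 10 (1 library per stage). The sum goes from 1008.2 to 2071.5 and 2022.1 TPM, and LGALS3 takes 88.7% of the last bar.

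Between day 4 and day 6, 4 of the 6 genes rose and 0 fell. Of all measured genes 8.06% rose and 6.73% fell in that comparison. Between day 6 and day 10, 2 rose and 1 fell, against 8.25% and 7.1% of all measured genes. From day 4 to day 10, 4 rose and 1 fell, against 17.1% and 15.8%. The median difference of the 6 genes was 1.44, 0.85 and 1.73 on the log2 scale in these comparisons, where the median of all measured genes was 0, -0.01 and 0.01. The comparisons share libraries, so they are not separate pieces of evidence, and the genes were chosen with results of these data known.

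**Figure D2:**
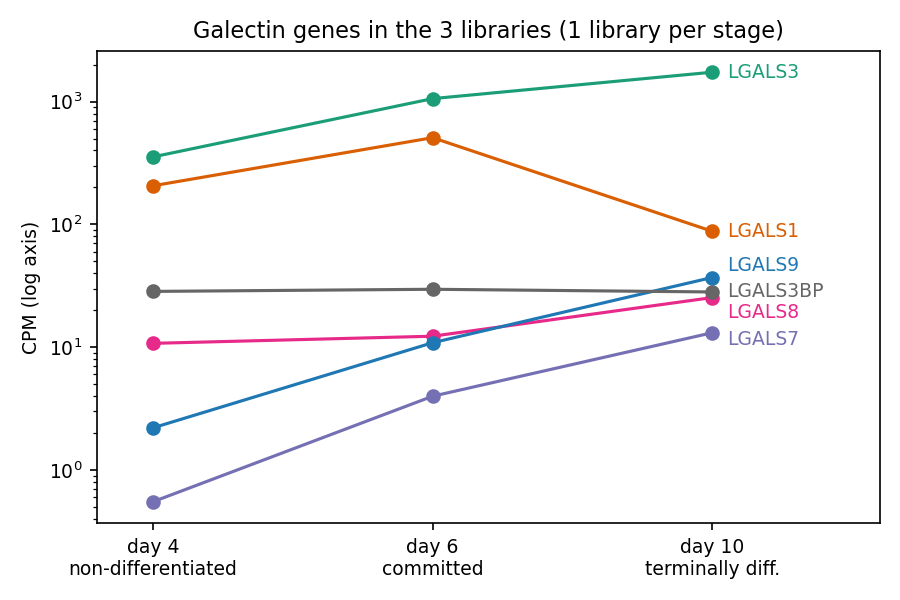
CPM of the 6 genes (log axis) in the 3 libraries, 1 point per library. LGALS3, LGALS7, LGALS8 and LGALS9 are highest on day 10, LGALS1 is highest on day 6, and LGALS3BP stays between 28.2 and 29.6 CPM.

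LGALS3 was the most abundant galectin on days 6 and 10. Its fragments numbered 3867, 12760 and 18438 in the libraries of days 4, 6 and 10, which is 355, 1058 and 1737 CPM. Its level was higher in each later library. It rose 2.98-fold [2.88 to 3.09] by day 6, was 1.64-fold higher [1.60 to 1.68] on day 10 than on day 6, and rose 4.89-fold [4.73 to 5.07] over the whole interval. By TPM it ranked 372 among all gene names on day 4, 229 on day 6 and 149 on day 10. Its coding sequence is 729 bases long, as implied by the deposited RPKM, and all of its fragments were whole counts on 1 coding sequence.

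LGALS1 was the only gene of the set that fell in any comparison. In the same order of libraries it had 2249, 6133 and 934 fragments, or 206, 509 and 88.0 CPM. The day 6 library was the highest and the day 10 library the lowest. LGALS1 rose 2.46-fold [2.35 to 2.59] by day 6, then fell 5.78-fold [5.40 to 6.20], and on day 10 lay 2.35-fold [2.17 to 2.53] under its day 4 level. With the deposited TPM in place of CPM the rise by day 6 was 0.90 on the log2 scale and no longer reached 2-fold. In that setting the median difference of all genes was -0.30. The coding sequence of LGALS1 is 405 bases long by the same reckoning, and it too had whole counts only.

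LGALS1 is abundant in fibroblasts, and the cells had grown on a mouse fibroblast feeder layer that was removed before RNA was taken. The values of LGALS1 are therefore set beside fibroblast and feeder markers. Counts are on rabbit coding sequences, so mouse RNA enters only where it matched them. Rabbit and mouse RNA were not told apart, so the marker levels are not a measure of the feeder alone. Of 26 measured markers of the list, 10 fell and 0 rose between day 4 and day 6 (median -0.89), while LGALS1 rose. Of all measured genes 6.73% fell and 8.06% rose in that comparison. Without TMM factors 16 of these markers fell at this step, and 18 with the deposited TPM. From day 6 to day 10, 9 fell and 2 rose (median -0.69), and over the whole interval 21 fell and 2 rose (median -1.66). Of all measured genes 7.1% fell and 8.25% rose from day 6 to day 10, and 15.8% and 17.1% over the whole interval. The summed level of the 27 markers found was 9132 CPM on day 4, 5518 on day 6 and 3531 on day 10, with 1 marker at 0 in each library. The largest parts of this sum were ACTA2, at 2362, 1644 and 1246 CPM, and VIM, at 1527, 1203 and 581 CPM.

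COL1A1 and COL1A2, the chains of type I collagen, stood at 542 and 679 CPM in the day 4 library, 312.5 and 389 in that of day 6, and 265 and 198 in that of day 10. The intermediate filament gene VIM was at 1527, 1203 and 581 CPM. From day 6 to day 10 VIM fell, while COL1A1 and COL1A2 were not called. The part of feeder RNA in the fall of LGALS1 after day 6 was not tested. The largest falls of the list were those of THBS1, THBS2 and CYR61, and its 2 risers from day 4 to day 10 were THY1 and TIMP1, of which 1 was left without TMM factors, with the deposited TPM or with a pseudocount of 5.

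**Figure D3:**
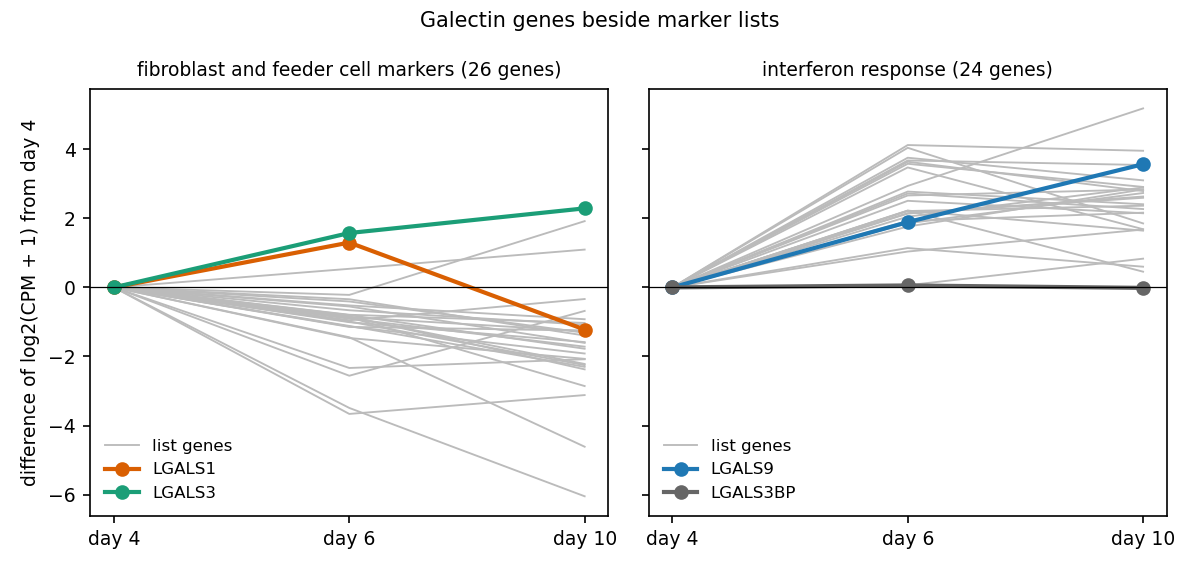
Difference of log2(CPM + 1) from day 4 in each library, for LGALS1 and LGALS3 beside 26 fibroblast and feeder markers (left) and for LGALS9 and LGALS3BP beside 24 interferon response genes (right), with each grey line 1 gene of the list. LGALS1 rises on day 6 where 10 of the markers fell, and LGALS9 rises at both steps while LGALS3BP stays level.

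LGALS7 came up from almost nothing. The libraries of days 4, 6 and 10 held 6, 48 and 139 of its fragments, or 0.551, 3.98 and 13.1 CPM. Each library was higher than the one before it. The gene rose 7.23-fold [3.09 to 20.7] by day 6, then 3.29-fold [2.35 to 4.67], and 23.8-fold [10.7 to 65.9] over the whole interval. The intervals are wide because the day 4 library held so few fragments. With a pseudocount of 5 the first rise was 0.69 on the log2 scale and was no longer called. Even on day 10 its 23.6 TPM was far under the 1794.5 TPM of LGALS3. In humans the galectin-7 gene has a near-identical copy. Here the tables list 1 coding sequence under the name, and its counts were whole numbers.

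LGALS9, whose product binds glycans with a pair of domains and which interferon induces in many cells, also rose at both steps. Its counts were 24, 131 and 392 fragments, or 2.20, 10.9 and 36.9 CPM. It rose 4.93-fold [3.17 to 7.97] by day 6, then 3.40-fold [2.78 to 4.17], and 16.8-fold [11.1 to 26.5] over the whole interval. Each library again exceeded the one before it. The deposited read counts gave 6.75-fold by day 6 and 23.1-fold by day 10, without an interval because both reads of a fragment come from 1 molecule. On day 4 its 24 fragments came with 24 reads, that is 1 read per fragment, where the median of measured genes with at least 20 fragments was 1.44.

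Interferon response genes are given beside LGALS9. By day 6, 23 of the 24 measured genes had risen and 0 had fallen (median 2.36), against 8.06% and 6.73% of all measured genes. From day 6 to day 10, 2 rose and 3 fell (median -0.15), or 8.33% and 12.5%, against 8.25% and 7.1%. The summed level of the list was 188 CPM on day 4, 1073 on day 6 and 1239 on day 10. LGALS9 rose over the second interval as well. So did IRF7, a transcription factor that amplifies the interferon response, at 12.2, 100.2 and 478 CPM. Without IRF7 the summed level of the list was lower on day 10 than on day 6. The 3 that fell from day 6 to day 10 were IFIT2, IFIT3 and RSAD2. They went from 21.6, 115.9 and 42.6 CPM to 5.65, 32.9 and 8.57 CPM. ISG15, a ubiquitin-like protein, was at 2.66, 44.5 and 24.3 CPM. IFI44 and IFI44L were also far above day 4 on day 10, at 22.4 and 28.7 CPM against 1.01 and 0.918.

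LGALS9 is also a gene of leukocytes, so immune cell markers were read in the same libraries. Of 15 markers, 4 reached 1 CPM. The summed level of all 15 went from 10.6 to 31.1 and 78.8 CPM. Of this, CD68, a lysosomal protein of macrophages and other cells, made up 5.60, 25.0 and 68.0 CPM. TYROBP, FCER1G, CD3E, CD3D, MS4A1, ITGAM and ITGAX had 0 fragments in all 3 libraries, and the pan-leukocyte PTPRC had 16, 22 and 16. CD207, a marker of Langerhans cells, had 21, 39 and 57 fragments, and LYZ, the lysozyme gene, 1, 5 and 34. Both rose from day 4 to day 10, as CD68 did, but with a pseudocount of 5 only 1 of the 3 did, and CD207 was under 2-fold with the deposited TPM too.

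LGALS8 changed late, and from day 4 to day 10 it rose by less than LGALS3, LGALS7 and LGALS9. Its product patrols the cytosol for damaged vesicles, whose exposed sugars it binds. Its fragments numbered 117, 148 and 269, or 10.7, 12.3 and 25.3 CPM. The first 2 libraries differed by less than counting error could show, at 1.14-fold [0.891 to 1.47]. From day 6 to day 10 the CPM ratio was 2.06 [1.68 to 2.54], but the difference of log2(CPM + 1) was 0.99, just short of the threshold. Without TMM factors it was 1.01, and with a pseudocount of 0.1 it was 1.04. From day 4 to day 10 LGALS8 rose 2.36-fold [1.89 to 2.96], a call lost with the deposited TPM (0.88) and with a pseudocount of 5 (0.95).

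LGALS3BP codes for a secreted, heavily glycosylated protein that binds galectins, and interferon is known to induce it. It was counted at 310, 357 and 299 fragments, or 28.4, 29.6 and 28.2 CPM. The 3 libraries were level by this measure, with ratios of 1.04 [0.891 to 1.22] for day 6 over day 4, 0.951 [0.813 to 1.11] for day 10 over day 6 and 0.990 [0.842 to 1.16] for day 10 over day 4. It thus neither rose with the interferon response list nor turned as LGALS1 did. The read counts give a different picture, with 351, 525 and 466 reads and a ratio of 1.32 for day 6 over day 4, still under 2-fold.

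On day 4 LGALS3BP had 1.13 reads per fragment, lower than in all but 4.86% of measured genes with at least 20 fragments, against 1.47 on day 6 and 1.56 on day 10.

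**Figure D4:**
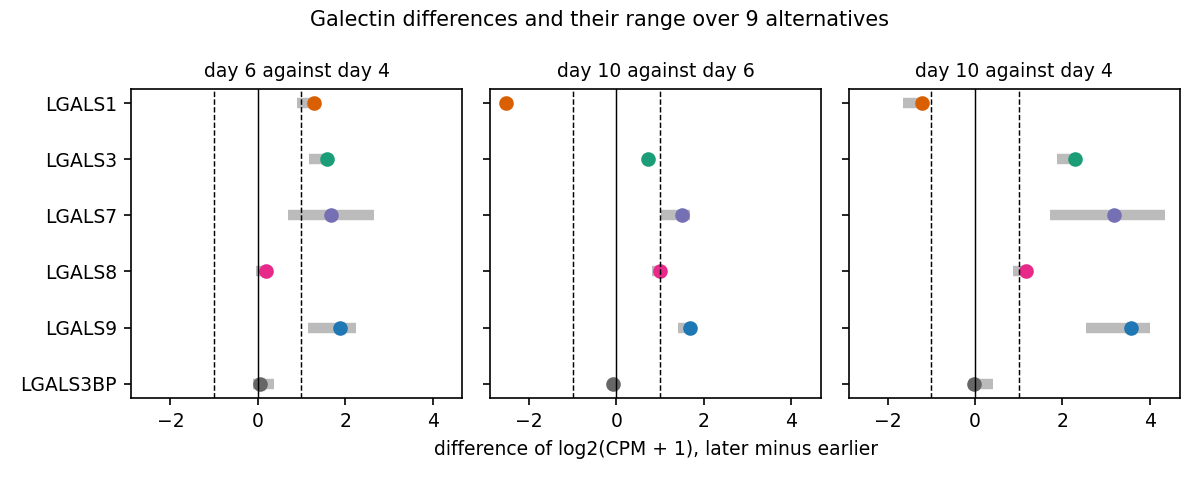
Difference of log2(CPM + 1), later minus earlier, of each gene in the 3 comparisons (points), with the range over the 9 alternative settings, the reported value included (grey bars) and the 2-fold threshold (dashed lines). The bars of LGALS7 and LGALS9 against day 4 are long because few fragments were counted there, and LGALS1 lies at -2.52 from day 6 to day 10.

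The order of levels by TPM changed between stages below the leading pair. On day 4 LGALS3BP at 12.4 TPM and LGALS8 at 9.4 TPM came next, followed by LGALS9 at 1.4 and LGALS7 at 1.3 TPM, which did not differ beyond counting error. On day 6 LGALS3BP was at 12.8 TPM, and LGALS8, LGALS7 and LGALS9 followed at 9.1, 7.3 and 7.2 TPM, with no neighbours among the last 3 apart beyond counting error. On day 10 LGALS9 at 24.3 and LGALS7 at 23.6 TPM had passed LGALS8 at 18.1 TPM and LGALS3BP at 12.8 TPM. LGALS9 and LGALS7 again did not differ beyond counting error, at a ratio of 1.03 [0.846 to 1.26], while LGALS7 lay 1.30-fold [1.05 to 1.61] above LGALS8.

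Of 9 other galectin and galectin-related genes looked for, 4 were in the tables and 1 was measured. This was LGALSL, a galectin-like protein that lacks sugar binding, at 5.60, 4.06 and 4.05 CPM. LGALS2 had fewer than 5 rounded fragments in each library. LGALS4 and LGALS12, known from gut and fat, had 0 fragments in every library, which allows up to 0.275, 0.249 and 0.283 CPM.

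Galectins need galactose-ended glycans, so the enzymes that build and cap them were also read. Of 19 measured genes of N-glycan branching and poly-N-acetyllactosamine synthesis, 0 rose and 3 fell by day 6, 3 rose and 1 fell from day 6 to day 10, and 3 rose and 2 fell over the whole interval (median -0.08; 4 fell with the deposited TPM). The shares over the whole interval, 15.8% rising and 10.5% falling, were under the 17.1% and 15.8% of all measured genes. By day 6, 15.8% of the list fell against 6.73% of all measured genes, and from day 6 to day 10, 15.8% rose against 8.25%. MGAT5, which adds the branch that galectin-3 favours, was at 62.6, 44.0 and 46.9 CPM and was not called. B4GALT1, the main galactosyltransferase, was at 42.7, 56.7 and 49.3 CPM.

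MGAT3, whose bisecting sugar stops further branching, rose 42.8-fold [14.3 to 210] from 3 fragments on day 4 to 125 on day 10. The galactosyltransferase B4GALT4 rose 5.82-fold [3.84 to 9.11] and SLC35A3, which brings UDP-N-acetylglucosamine into the Golgi, 3.29-fold [2.72 to 4.01]. B4GALT2 was at 15.9 CPM on day 4 and 6.59 on day 10, and B3GNT8, which extends N-glycan branches, at 13.6 and 3.11 CPM. Both fell.

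Of 11 measured O-glycan genes, 0 rose or fell by day 6, against 8.06% rising and 6.73% falling of all measured genes. From day 6 to day 10, 5 rose, 0 fell and 6 did neither (median 0.63), against 8.25% and 7.1%. Over the whole interval 3 rose, 0 fell and 8 did neither (median 0.43), against 17.1% and 15.8%. GALNT12, which starts O-glycans on mucin-type proteins, went from 16.1 to 27.9 and 106 CPM. GCNT1 and GCNT3, which branch O-glycans, went from 1.19 and 0.734 CPM on day 4 to 6.78 and 3.67 CPM on day 10. GALNT3 and GALNT7 rose from day 6 to day 10, but neither was called from day 4 to day 10. With a pseudocount of 5, 2 of the 11 were called as rising from day 6 to day 10 and 1 over the whole interval, where 1 fell with the deposited TPM.

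Among 18 genes of sialic acid and fucose caps, 4 rose and 1 fell by day 6, against 8.06% and 6.73% of all measured genes. From day 6 to day 10, 3 rose and 1 fell, against 8.25% and 7.1%. Over the whole interval 7 rose and 1 fell (median 0.90), against 17.1% and 15.8%. ST6GALNAC1, which caps O-glycans with sialic acid, was at 3.40, 15.7 and 46.2 CPM. ST3GAL6 was at 2.48, 6.05 and 18.7 CPM, and FUT2, a fucosyltransferase of secretory epithelia, at 1.10, 4.31 and 12.1 CPM. ST3GAL1 fell from 6.79 to 2.07 CPM. ST6GAL1, whose cap on N-glycans blocks galectin-1, was at 0.642, 0.829 and 1.22 CPM and was not called. With 7, 10 and 13 fragments, its ratio of day 10 over day 4 was 1.91 [0.707 to 5.64]. By day 6, 7 of the 18 rose with a pseudocount of 0.1 and 2 with one of 5.

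Of 26 measured surface and matrix glycoproteins that galectins bind, 2 rose and 3 fell by day 6, 4 rose and 0 fell from day 6 to day 10, and 3 rose and 4 fell over the whole interval. The shares over the whole interval, 11.5% rising and 15.4% falling, were under the 17.1% and 15.8% of all measured genes. By day 6, 7.69% rose and 11.5% fell, against 8.06% and 6.73%, and from day 6 to day 10, 15.4% rose and 0 fell, against 8.25% and 7.1%. With the deposited TPM 1 rose and 5 fell by day 6. The membrane mucin MUC4 was at 1.01, 15.8 and 449.6 CPM, and MUC20, another mucin of wet surfaces, at 0.184, 1.33 and 21.6 CPM. MUC1, a membrane mucin bound by galectin-3, was at 19.1, 18.6 and 37.2 CPM and was not called. The glucose transporter SLC2A1 rose to 1527 CPM on day 10. The fibronectin receptor chain ITGA5, the transferrin receptor TFRC and the coreceptor NRP1 fell from 213, 407 and 6.33 CPM to 36.8, 69.7 and 0.471 CPM. FN1, fibronectin itself, was the other gene of the list that fell.

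Several abundant ligands changed by less than 2-fold from day 4 to day 10. The integrin chains ITGB1 and ITGA6 went from 436 and 589 CPM to 469.5 and 456 CPM. The lysosomal glycoproteins LAMP1 and LAMP2 went from 92.9 and 72.3 CPM to 161.5 and 138 CPM. BSG, which galectin-3 engages on the cell surface, was at 13.6, 23.1 and 19.9 CPM.

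Inside the cell, galectin-8 recruits the autophagy receptor CALCOCO2 to damaged vesicles, and galectin-3 works there with TRIM16. CALCOCO2 was at 56.1, 120.4 and 251 CPM and rose at both steps, 4.48-fold [4.10 to 4.90] in all, though its first rise was under 2-fold without TMM factors and with the deposited TPM. TRIM16 was at 68.6, 11.4 and 16.0 CPM and fell between day 4 and day 6. Of 21 measured partner and damage response genes 1 rose and 2 fell by day 6, 4 rose and 1 fell from day 6 to day 10, and 6 rose and 2 fell over the whole interval. By day 6 these shares were 4.76% rising and 9.52% falling, near the 8.06% and 6.73% of all measured genes. They were 19.0% and 4.76% from day 6 to day 10, against 8.25% and 7.1%, and 28.6% and 9.52% over the whole interval, against 17.1% and 15.8%. The receptors OPTN and SQSTM1 and the autophagy protein GABARAPL2 were among the 6, at 55.1, 299.9 and 109 CPM on day 10 against 21.9, 140.3 and 35.2 on day 4. With the deposited TPM 2 genes rose in place of 6, and by day 6, 0 rose and 4 fell, and SQSTM1 was under 2-fold without TMM factors too. GEMIN4, a splicing-complex protein that binds galectin-3, fell from 64.2 to 10.2 CPM. PDCD6IP, an ESCRT adaptor, was at 294, 184 and 222 CPM and was not called.

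**Figure D5:**
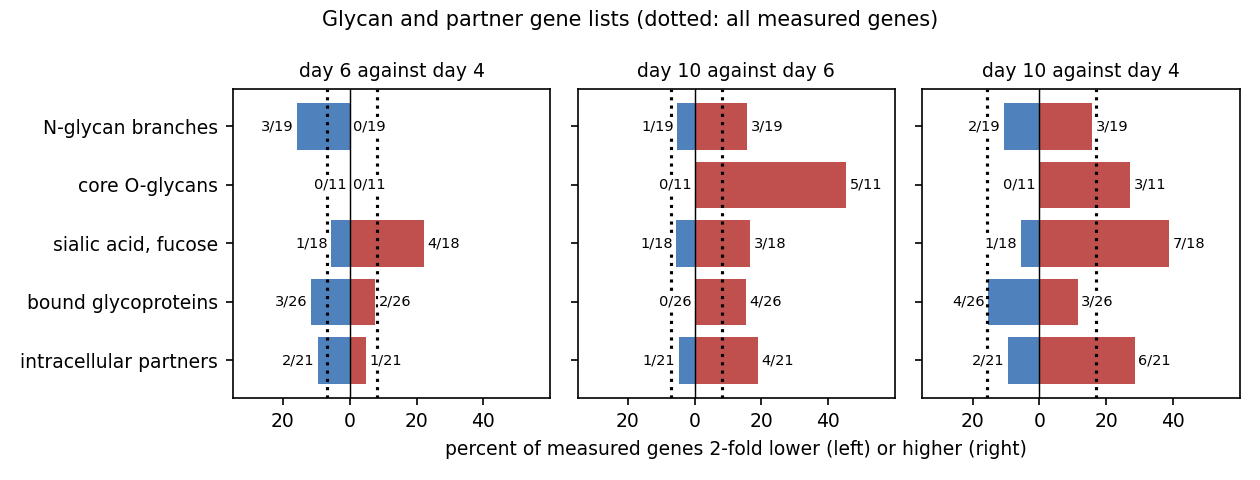
Percent of the measured genes of 5 fixed lists that fell (left of 0) or rose (right of 0) by 2-fold or more in each comparison, with the counts beside the bars and the percent of all measured genes as dotted lines. The O-glycan list has 5 of 11 genes rising from day 6 to day 10 and 0 of 11 by day 6.

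The genes whose profiles lay nearest to each galectin were found among 8094 named genes with at least 10 CPM in 1 library, by Euclidean distance between the log2(CPM + 1) values of the 3 libraries, each gene's mean taken off. Over only 3 libraries this distance is a description. For LGALS3 the nearest were HIBCH at 0.044, CLYBL, TAPBPL, RAB26 and MYO5B at 0.084, and 56 genes lay within 0.25. For LGALS1 no gene lay within 0.25. Its nearest were ENTPD6 at 0.371, SLC43A2, GPT2, ASNS and PHGDH at 0.608. ASNS, which makes asparagine, was at 60.5, 96.9 and 26.8 CPM, and PHGDH, which starts serine synthesis, at 110.4, 186 and 57.7 CPM.

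For LGALS7 the nearest were MAL, WBSCR27, PAX6, ADD3 and ACOD1, at 0.085 to 0.129. PAX6, the master regulator of eye development, was at 42.2, 127 and 358 CPM. LGALS7 was at only 0.551 CPM on day 4, so the pseudocount of 1 shrinks its profile. Its log2 difference from day 4 to day 10 was 3.18, against 4.34 with a pseudocount of 0.1. A small distance from LGALS7 thus does not mean an equal fold of CPM, which for LGALS7 was 23.8 [10.7 to 65.9]. For LGALS9 the nearest were PMEL at 0.053, ST6GALNAC1, PPP1R3C, IL22RA2 and CD68 at 0.195, with 10 genes within 0.25. LGALS8 had 256 genes within 0.25, led by MBTD1, GIGYF1, ZKSCAN8, PARP11 and HOOK3. LGALS3BP had 969, led by MRPS10, TRMT1L, RFWD3, THOC7 and DARS.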

How the data were processed

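RNA was sequenced in 3 libraries, 1 per stage. The authors' tables give fragment and read counts for each coding sequence, per the file headers. The deposited values are estimated counts, often fractional, where shared reads were split. The deposited raw transcript count is a coverage signal and was not used. The authors' FPKM, RPKM and TPM are normalized for coding length and depth, per the file headers. Per the submitters' processing notes, the genome was OryCun2.0. The sources used here do not name the aligner, the counting program or any use of strand.

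Fragment counts were summed by gene name and rounded. CPM used TMM factors from edgeR 4.0.16 (R 4.3.3); DESeq2 1.42.0 gave alternative size factors. A gene was measured at 1 CPM in at least 1 library. Differences are of log2(CPM + 1), which understates low genes, and are called at 2-fold. Single-gene folds are CPM ratios with 95% Clopper-Pearson intervals of the fragments (read-based ratios have none), and 0 fragments allow up to 3. PCR copies are not independent molecules. Coding lengths come from RPKM, reads and read totals. Of 5185 LOC names, 671 took a symbol from RefSeq's mOryCun1.1 table. The members and gene lists were chosen with earlier results of these data known. Named are the members, up to 3 risers and 3 fallers per list from day 4 to day 10, key genes and the 5 nearest profiles per member. GALNT3, GALNT7, FN1, ACTA2, the immune and interferon genes beside LGALS9 outside that rule and the list members at 0 were named after their values were seen. Some listed genes are not reported here. The code behind the calls was checked on simulated counts with known folds, which is no test of the stages.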

Additional observations from a re-analysis of the deposited data

How the results depend on the processing

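No paired analysis was possible because each stage has 1 library. The 6 genes were compared under 9 alternative settings and at 2 other thresholds. At a 1.5-fold threshold 5 of the 6 were called between day 6 and day 10 in place of 3. At a 4-fold threshold 0 were called between day 4 and day 6, 1 (LGALS1) between day 6 and day 10 and 3 (LGALS3, LGALS7 and LGALS9) between day 4 and day 10. The sign held under all 9 alternatives in 14 of 18 gene comparisons. The exceptions were the 3 of LGALS3BP and LGALS8 between day 4 and day 6, none of them called. The alternatives with no minimum or a minimum of 5 CPM change only which genes count as measured. The values of the 6 genes could not move in them. Taking only each gene's highest coding sequence, the LGALS3 share on day 10 was 89.6%, because the other sequences of LGALS8 and LGALS9 then drop out. Of all genes called between day 4 and day 6, 54.5% rose, against 39.3% without TMM factors and 25.8% with TPM; from day 4 to day 10 these were 52.0%, 44.1% and 31.9%. The median of all genes then moved to -0.14 and -0.30, and to -0.11 and -0.31. With a pseudocount of 5 the counts over all genes were 472 up and 451 down, 562 and 452, and 1324 and 1319, against 1033 and 863, 1058 and 910, and 2190 and 2024 in the 3 comparisons. With TPM, 567 rose and 1634 fell by day 6. Depth limits LGALS7 and LGALS9 most, at 6 and 24 fragments on day 4.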

Other observations

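The tables hold 2 coding sequences each for LGALS8, LGALS9 and LGALS3BP, with nearly equal counts in each pair. For LGALS8 they had 58.5 fragments each on day 4 and 74 each on day 6, and on day 10 the longer had 136 and the shorter 133. For LGALS9 they had 12 each on day 4, 66.5 and 64.5 on day 6, and 201 and 191 on day 10, with the longer sequence first. For LGALS3BP both had the same count in every library, 155, 178.5 and 149.5. The gene sums used above do not depend on how shared fragments were split between sequences of 1 gene.

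By RefSeq's mOryCun1.1 annotation, an assembly other than that of the files, LGALS2 and LGALS1 lie close together, with GGA1, SH3BP1 and PDXP between them. LGALS3 lies between DLGAP5 and MAPK1IP1L, LGALS9 between KSR1 and NOS2, and LGALS8 next to HEATR1. No protein-coding gene was found under the name LGALS7 in that annotation, so its place and copy number were not read there.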
